A study of Rattus norvegicus with 61 samples.

Results

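Genes that mark the endothelium of the blood-brain barrier were followed through 61 libraries of rat striatum and cerebellum. The 9 genes were Tie1, Slc2a1, Slco1a4, Mfsd2a, Pecam1, Ocln, Cldn5, Abcb1a and Flt1, listed by name and matched to the deposited rows through their NCBI Gene IDs (89806, 24778, 170698, 298504, 29583, 83497, 65131, 170913 and 54251, in that order). All 9 of 9 were present in both regional count tables, among 14471 genes in at least one of them, and all 9 passed the filter on low counts in each region.

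The animals were adolescent Sprague-Dawley males, and all of them, sham rats included, had a polymer implant placed under the skin of the back at postnatal day 28 and kept it for 28 days. The implant was either blank (0%, sham) or loaded with 4-OH-PCB52, a hydroxylated PCB metabolite, at 1% (low), 5% (medium) or 10% (high). The study asked which genes are altered in the 2 regions by the subacute exposure. There were 8 sham, 6 low, 8 medium and 8 high libraries from striatum. Cerebellum gave 7 sham libraries and 8 at every loading, although the series text gives 6 per group. Tissue was taken as punches, so a library holds every cell type of the punch. Each library is named here by its group and animal number. The 3 comparisons of a region share their sham libraries and are not independent.

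Endothelial cells of brain vessels are sealed to one another by tight junctions and take up nutrients through dedicated transporters, while efflux pumps return many lipid-soluble compounds to the blood. Claudin-5, encoded by Cldn5, is the main claudin of that seal, and occludin (Ocln) is a second junction protein. Pecam1 encodes an adhesion molecule of endothelial contacts, Tie1 a receptor of the angiopoietin system and Flt1 a receptor for vascular endothelial growth factor (VEGF). Slc2a1 encodes the glucose transporter GLUT1, Mfsd2a a carrier of omega-3 lysophospholipids, Slco1a4 an organic anion transporter and Abcb1a the efflux pump P-glycoprotein.

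Library totals lay between 5850199 and 10944066 counts for striatum and between 5420458 and 10994625 counts for cerebellum. Levels are given in CPM, which scales counts to one library total, with normalization factors set within each region, so CPM of the 2 regions were normalized separately. A library was set apart when its mean log2 CPM over 72 ribosomal protein genes, or over genes of its region's own neurons, lay more than 1 from the median of its region. In the striatum this held for 8 of 30 libraries, namely 2 sham, 1 low, 2 medium and 3 high. In the cerebellum it held for 10 of 31, namely 1 sham, 2 low, 4 medium and 3 high. The library labelled cerebellum low of animal 22 went against its label, with a granule cell mean of 3.91 against a regional median of 9.21. Those labelled striatum sham 17, low 20 and high 13 had means of 4.72, 5.41 and 5.58 for striatal projection neuron genes, against a regional median of 8.99. In bulk tissue of this kind, fewer vessel cells and less RNA per cell cannot be told apart.

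All 9 genes had higher estimates in sham striatum than in sham cerebellum, and 4 of them passed the test: Mfsd2a, Pecam1, Slc2a1 and Slco1a4. The 4 were called by edgeR's quasi-likelihood test with Benjamini-Hochberg adjustment over 12616 genes, where 20.9% of all genes were called higher in striatum, 22.1% were called lower and 44.3% had a higher estimate. The median log2 difference of the 9 was 0.64, against -0.09 over all genes tested. The genes that passed were both carriers of brain nutrients, the organic anion transporter and the adhesion molecule. That fit held no term for the animal, although many animal numbers occur in both regions. With the animal as the replicate block 4 were again called. Flt1 was gained (adjusted p = 0.0352 by edgeR) and Slco1a4 lost (0.0858).

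Among the uptake carriers, Mfsd2a ranged from 25.3 to 36.0 CPM in sham striatum (median 29.1, n = 8) and from 9.18 to 17.6 CPM in sham cerebellum (median 11.7, n = 7). The groups did not overlap in these CPM, which were normalized within each region. The joint fit gave a 2.35-fold difference (log2 1.23 ± 0.27 SE, adjusted p = 0.000173 by edgeR). Slc2a1 ranged from 151 to 210.3 CPM in sham striatum (median 186) and from 84.4 to 127 CPM in sham cerebellum (median 94.9). Again every striatal library lay above every cerebellar one in CPM, and the joint fit gave a 1.81-fold difference (log2 0.85 ± 0.15 SE, adjusted p = 2.96e-06 by edgeR). How many of all genes separate in this way was not counted.

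Slco1a4 stood nearer the threshold. Its sham striatal libraries ran from 51.6 to 138 CPM (median 83.1) and the cerebellar ones from 53.6 to 76.1 CPM (median 63.7), so the groups overlapped. The log2 difference was 0.49 ± 0.21 (SE), with an adjusted p of 0.0472 in edgeR. It was 0.44 with an adjusted p of 0.0858 when the animal was kept as a replicate block, and leaving out any of 9 libraries gave an adjusted p of 0.0550 to 0.143 (striatum sham 3, 32 and 34, and cerebellum sham 1, 3, 17, 18, 32 and 34). Without the libraries set apart it was 0.64, with an adjusted p of 3.00e-05.

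Pecam1 ranged from 10.7 to 29.5 CPM in sham striatum (median 21.4) and from 9.19 to 14.6 CPM in sham cerebellum (median 10.7). All but the lowest striatal library, animal 17, lay above all cerebellar ones, and the log2 difference was 0.88 ± 0.20 (SE, adjusted p = 0.000258 by edgeR). Ocln, the other contact protein with narrow ranges, ran from 17.2 to 30.3 CPM (median 22.3) against 15.9 to 22.7 CPM (median 20.2). Its log2 difference of 0.20 ± 0.15 (SE) did not pass (adjusted p = 0.296 by edgeR).

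Neither receptor passed, nor did the efflux pump. Tie1 ran from 30.5 to 51.1 CPM in striatum (median 38.4) and from 22.5 to 34.7 CPM in cerebellum (median 29.2), a log2 difference of 0.44 ± 0.21 (SE, adjusted p = 0.0790 by edgeR, and 0.0401 without cerebellum sham 48). Flt1 ran from 60.5 to 199 CPM (median 112) against 20.7 to 87.8 CPM (median 80.2), and Abcb1a from 31.2 to 125 CPM (median 66.03) against 15.4 to 57.5 CPM (median 50.6). Their log2 differences were 0.72 ± 0.38 and 0.64 ± 0.42 (SE), with adjusted p of 0.127 and 0.227 in edgeR. The Flt1 difference was 0.84 with an adjusted p of 0.0352 when the animal was the replicate block.

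Cldn5 had the smallest regional difference of the 9, 0.17 ± 0.35 on the log2 scale (adjusted p = 0.739 by edgeR). Its sham striatal libraries ran from 87.1 to 249.8 CPM (median 160.3) and its cerebellar ones from 82.7 to 407 CPM (median 98.3). The cerebellar maximum was one library, sham 48, and the next highest was sham 1 at 155 CPM. With the libraries set apart left out, the Cldn5 difference was 0.66 (adjusted p = 0.00216 by edgeR), and 8 of the 9 genes were called, Ocln being the exception at 0.12 (adjusted p = 0.380). In that fit 8434 genes were called in all, against 5431 with every library.

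**Figure D1:**
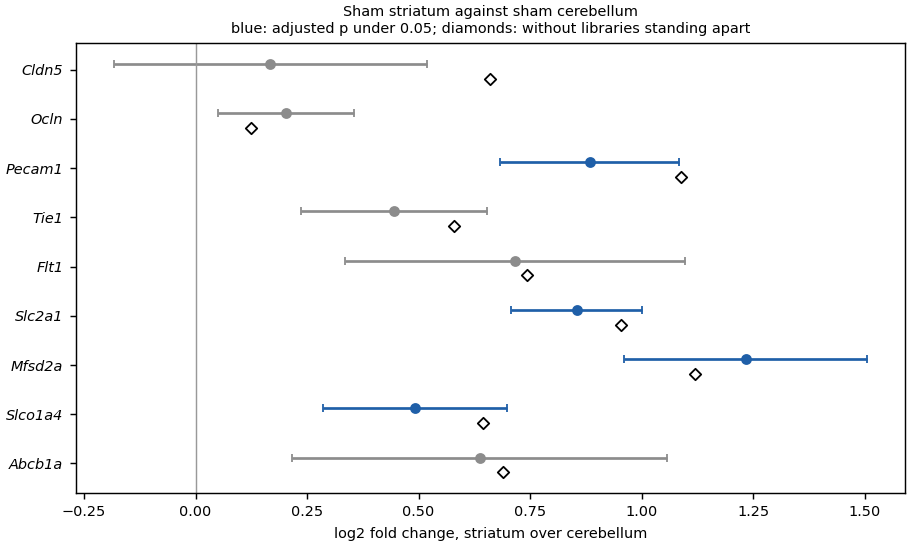
Log2 fold change of sham striatum over sham cerebellum for the 9 genes (x axis), as dots with SE bars over all libraries and as diamonds without the libraries set apart. Every dot and diamond lies above 0, and the 4 blue dots (Pecam1, Slc2a1, Mfsd2a and Slco1a4) passed an adjusted p of 0.05.

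In the striatum, all 9 genes had higher estimates than sham at each of the 3 loadings, but none passed the test at any loading. The median log2 fold change over the 9 was 0.28 at the low loading, 0.27 at the medium loading and 0.18 at the high loading, while the median over all 12267 genes lay between -0.00 and 0.02. A higher estimate was held by 49.8, 54.8 and 56.7% of all genes, in that order of loading. edgeR called 0% of genes at each loading, and DESeq2 and limma-voom also called no member. At an unadjusted p under 0.05 there were 2, 1 and 0 members, where 3.84, 3.69 and 1.15% of all genes lay under that value. The 2 at the low loading were Tie1 and Slc2a1, and the 1 at the medium loading was Slco1a4. The 9 directions are not 9 independent results, since the genes share their libraries and their cell type.

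The receptors and the pump had the largest estimates at the low loading. Abcb1a ran from 31.2 to 125 CPM in sham (median 66.03), from 97.3 to 125 CPM at the low loading (median 106, n = 6), from 36.2 to 133 CPM at the medium loading (median 93.1) and from 19.3 to 99.2 CPM at the high loading (median 90.6). The low group was narrow and overlapped the upper part of the sham range, whose lower end was set by sham 48, 49 and 17. The log2 fold changes against sham were 0.61 ± 0.31, 0.32 ± 0.29 and 0.18 ± 0.29 (SE). With 1 library left out the medium estimate ran from 0.21 (without medium 54) to 0.49 (without sham 3), and the high one from 0.07 (without sham 48) to 0.35 (without sham 3).

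Flt1 followed the same order. Sham ran from 60.5 to 199 CPM (median 112), low from 142 to 234 CPM (median 164), medium from 57.9 to 199.6 CPM (median 149.7) and high from 27.5 to 201 CPM (median 143). Its log2 fold changes were 0.57 ± 0.31, 0.27 ± 0.29 and 0.21 ± 0.29 (SE). With 1 library left out, the medium estimate of Flt1 ran from 0.18 (without sham 49) to 0.42 (without sham 3) and the high one from 0.10 (without high 43) to 0.36 (without high 28). All exposed groups overlapped the sham group.

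Tie1 had the largest estimate relative to its error at the low loading. Sham ran from 30.5 to 51.1 CPM (median 38.4) and low from 46.1 to 74.0 CPM (median 53.98), with 3 of 8 sham libraries above the lowest low one. The log2 fold change at the low loading was 0.48 ± 0.17 (SE, 1.39-fold), with an adjusted p of 0.905 in edgeR. The medium group ran from 32.5 to 64.7 CPM (median 48.9, log2 0.28 ± 0.16) and the high group from 25.2 to 58.5 CPM (median 48.5, log2 0.20 ± 0.16).

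The uptake transporters had smaller estimates than these at the low loading. Slc2a1 medians were 186 CPM in sham, 228 at the low loading, 198 at the medium loading and 196 at the high loading, over a range of 151 to 282 CPM. Its log2 fold change at the low loading was 0.28 ± 0.12 (SE, adjusted p = 0.905 by edgeR). Slco1a4 had its largest estimate at the medium loading, where libraries ran from 85.4 to 157 CPM (median 113) against 51.6 to 138 CPM in sham (median 83.1). That estimate was 0.40 ± 0.17 (SE, adjusted p = 0.9999 by edgeR). Mfsd2a had medians between 29.1 and 33.1 CPM across the 4 groups and log2 fold changes of 0.21, 0.13 and 0.17. Some of these values depended on single libraries, with Slco1a4 at the high loading at 0.11 without sham 17 and 0.31 without sham 3, Slc2a1 at the medium loading at 0.10 without medium 24, and Mfsd2a at the low loading at 0.10 without low 51.

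The contact proteins showed overlapping groups throughout. Cldn5 medians were 160.3 CPM in sham, 179 at the low loading, 190.4 at the medium loading and 155 at the high loading, with log2 fold changes of 0.17 ± 0.24, 0.31 ± 0.22 and 0.17 ± 0.22 (SE). The Cldn5 estimate was 0.06 at the low loading without low 37 and 0.02 at the high loading without high 59, while sham 49 left out gave 0.28 at both. It was 0.25, 0.12 and 0.22 without the libraries set apart. Ocln medians lay between 22.3 and 27.1 CPM, with estimates of 0.21, 0.13 and 0.13, which were 0.35, 0.27 and 0.32 without the libraries set apart. The medium estimate of Ocln was 0.05 without medium 24, and the high one 0.06 without high 59 and 0.21 without high 28. Pecam1 medians lay between 21.4 and 24.3 CPM, with estimates of 0.19, 0.23 and 0.19. These were 0.11, 0.05 and 0.10 without the libraries set apart, and Pecam1 was at 0.08 (low) without low 37, 0.13 (medium) without sham 17 and 0.07 (high) without high 59.

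**Figure D2:**
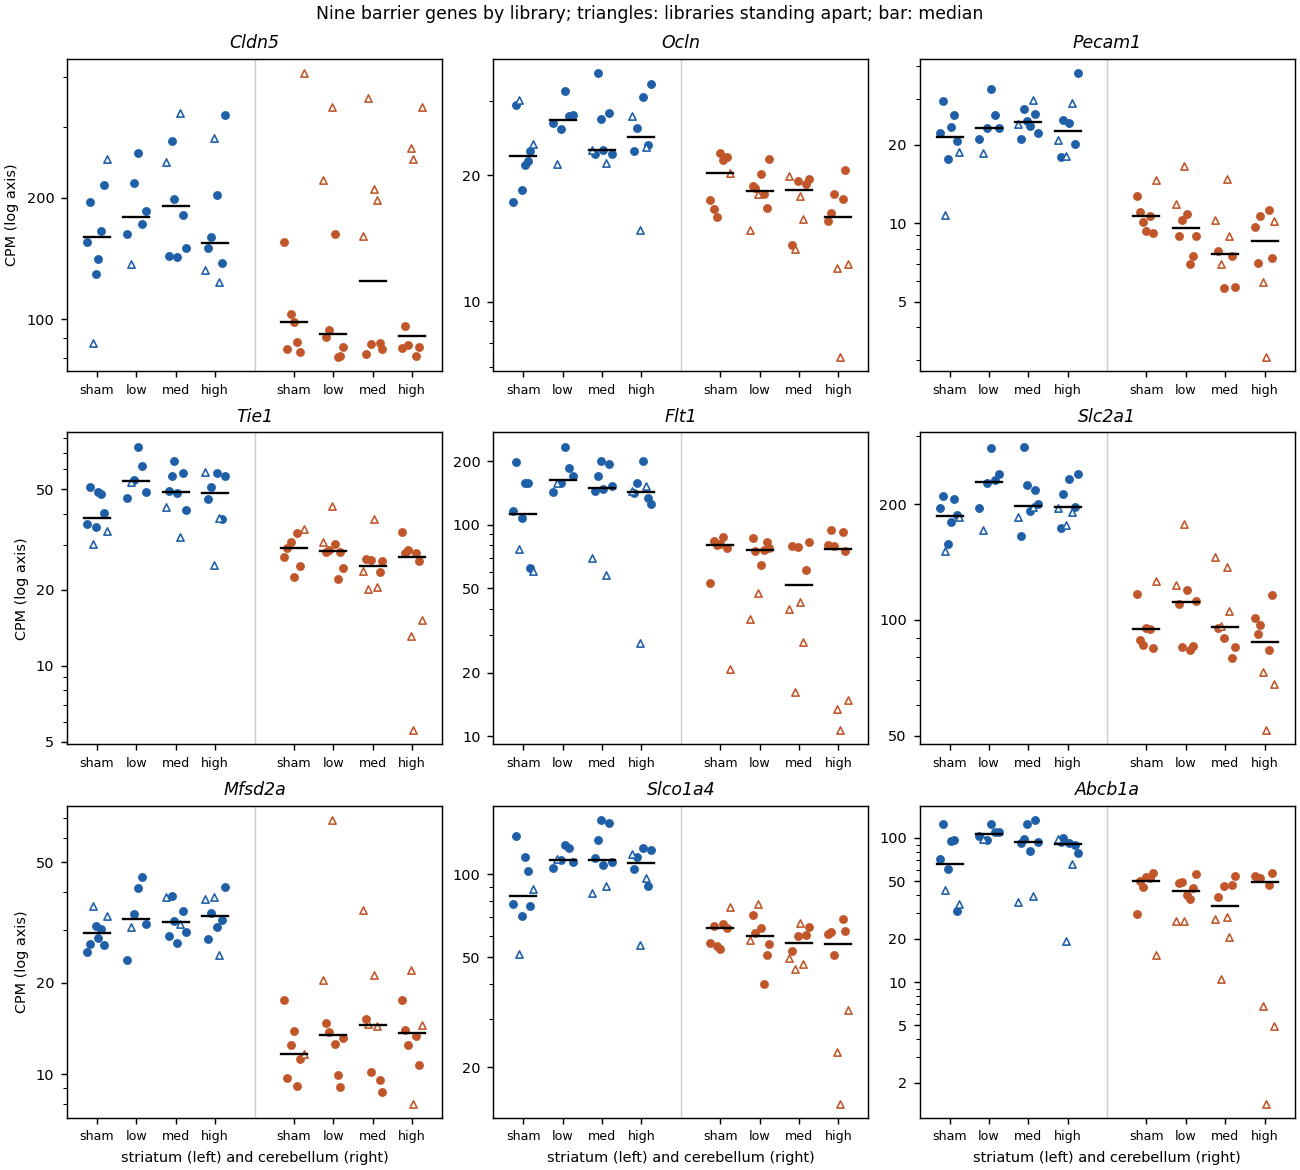
CPM on a log axis of each of the 9 genes in every library, by exposure group, for striatum (blue) and cerebellum (orange). Bars mark group medians, and open triangles mark libraries set apart by their ribosomal protein or neuron genes. The exposed striatal groups overlap sham for every gene, and the triangles of the cerebellum lie high for Cldn5 and low for Flt1 and Abcb1a.

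Leaving out the striatal libraries set apart left the 9 estimates above 0 at each loading, with medians of 0.32, 0.27 and 0.20. Leaving out any one library also left all 9 above 0, and the median of the low comparison then ran from 0.20 (without low 37) to 0.34 (without low 20). In the high comparison it ran from 0.11 (without sham 17) to 0.25 (without sham 3), against 0.18 with all libraries. limma-voom with sample weights gave 8 of 9 above 0 at the high loading, with Pecam1 at -0.02. Sham 17, which had the lowest Cldn5 of its group at 87.1 CPM, also had the highest choroid plexus mean of the striatum at 7.99 log2 CPM, against a regional median of 1.42, and its part in these estimates was not tested beyond that omission.

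No dependence on loading was called in the striatum. The 4 groups together gave 3 genes of 12267 (0.0245%) at an adjusted p under 0.05 in edgeR, none of them a member, and 0 members at an unadjusted p under 0.05, where 2.02% of all genes lay. A linear trend with the percentage in the implant gave higher estimates for 7 of the 9, against 54.6% of all genes, with 0 members at an unadjusted p under 0.05 (0.970% of all genes) and 0% of genes called. With limma-voom 4 of the 9 trend estimates were above 0, and without animal 17 there were 5. DESeq2 and limma-voom called no member in either test.

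The neighbouring lists of vessel genes had mostly higher estimates at the low loading, where 49.8% of all genes were higher, again with none called. All 15 measured genes of VEGF and angiopoietin signalling were higher than sham (median log2 0.39), as were all 16 further barrier transporters and receptors (0.25), all 11 endothelial transcription factors (0.29) and all 14 mural cell genes (0.43). Acvrl1, a receptor of bone morphogenetic protein 9 on endothelium, was at 0.50 ± 0.20 and Tek, the angiopoietin receptor, at 0.48 ± 0.20 (SE). The mural genes Rgs5 and Pdgfrb, of pericytes, were at 0.63 ± 0.25 and 0.56 ± 0.23. Genes of astrocyte endfeet were higher in 10 of 11 (0.36), junction genes in 9 of 11 (0.24), Wnt pathway genes in 13 of 14 (0.22) and genes of vessel basement membrane in 6 of 6 (0.33). At the other loadings the lists differed from one another. Mural cell genes were higher in 14 of 14 at the medium (0.29) and high loadings (0.25), and endfoot genes in 10 (0.16) and 11 of 11 (0.22). Genes of VEGF and angiopoietin signalling were higher in 12 and 13 of 15, endothelial transcription factors in 10 and 9 of 11, and the further transporters and receptors in 11 and 13 of 16 (0.13 at both). Wnt pathway genes were higher in 11 and 10 of 14 (0.06 and 0.12), junction genes in 8 and 7 of 11 (0.09 and 0.03) and basement membrane genes in 4 and 3 of 6 (0.02 and 0.00), where 54.8 and 56.7% of all genes were higher. The last 3 lists thus had medians nearer to 0 than at the low loading. All 9 members stayed above 0 at each loading, as did all 14 mural cell genes. The members' own medians were 0.28, 0.27 and 0.18. A further list, of permeable or activated vessels, is given by its library means and not by fold changes. Their group medians were 3.94 log2 CPM in sham and 3.97, 3.73 and 3.81 at the rising loadings, so below sham at the medium and high loadings.

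Markers of other cells and ribosomal protein genes were compared with sham in the striatum as well, again with none called. Microglial genes were higher in 11, 12 and 11 of 12 at the rising loadings (medians 0.28, 0.31 and 0.21), choroid plexus genes lower in 8 of 8 at each (-3.06, -4.18 and -3.73) and fibroblast genes lower in 6, 9 and 9 of 10 (-0.17, -0.41 and -0.42). Sham 17 held the highest choroid plexus and fibroblast means of the striatum, 7.99 and 6.02 log2 CPM. Group medians of the choroid plexus mean were 1.58 in sham and 1.73, 1.18 and 1.40 at the rising loadings. Those of the fibroblast mean were 3.62 in sham and 3.83, 3.60 and 3.55. Genes of striatal projection neurons were lower in 14 of 18 at the low loading (-0.12), higher in 18 of 18 at the medium loading (0.41) and higher in 9 of 18 at the high loading (0.01). Ribosomal protein genes, with whose mean Cldn5 went across libraries, were lower in 71 of 72 at the low loading (-0.21) but higher in 71 and 70 of 72 at the medium and high loadings (0.19 and 0.20). Group medians of the ribosomal mean were 7.68 in sham and 7.74, 7.85 and 7.69 at the rising loadings, so not lower at the low loading. The part of any of these lists in the vessel values was not tested.

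In the cerebellum, no member passed the test at any loading, and the estimates did not share a direction. Of the 9 genes, 3 were higher than sham at the low loading, 3 at the medium loading and 2 at the high loading, where 43.6, 49.7 and 47.3% of all genes were higher. The median log2 fold changes were -0.02, -0.17 and -0.33, against -0.03, -0.00 and -0.03 over all 11946 genes. edgeR called 0% of genes at each loading, and neither DESeq2 nor limma-voom called a member. At an unadjusted p under 0.05 there were 0, 0 and 1 members, where 1.52, 1.42 and 11.7% of all genes lay under that value. In the comparison of high with sham, DESeq2 gave an adjusted p for 1 of the 9 only.

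Ocln was the member under that value at the high loading. It ran from 15.9 to 22.7 CPM in sham (median 20.2), from 14.9 to 21.9 CPM at the low loading (median 18.4), from 13.3 to 19.9 CPM at the medium loading (median 18.5) and from 7.39 to 20.6 CPM at the high loading (median 15.9). All groups overlapped, and the lowest 3 libraries of the high group were those set apart. The log2 difference at the high loading was -0.38 ± 0.16 (SE), with an adjusted p of 0.417 in edgeR. Without the libraries set apart it was -0.12.

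Pecam1, Slco1a4 and Tie1 had estimates of similar size at the high loading. Pecam1 medians were 10.7 CPM in sham, 9.62 at the low loading, 7.65 at the medium loading and 8.54 at the high loading, with a log2 difference of -0.44 ± 0.23 (SE) at the high loading and -0.39 ± 0.23 at the medium loading. Slco1a4 ran from 53.6 to 76.1 CPM in sham (median 63.7) and from 14.8 to 68.8 CPM at the high loading (median 56.1), a log2 difference of -0.41 ± 0.22. Tie1 ran from 22.5 to 34.7 CPM in sham (median 29.2) and from 5.54 to 34.03 CPM at the high loading (median 26.9), a log2 difference of -0.37 ± 0.24. At the high loading these were -0.17, 0.05 and 0.07 without the libraries set apart, while Pecam1 at the medium loading was then at -0.65.

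The estimate for Mfsd2a at the low loading, 0.73 ± 0.36 (SE), was the largest of any member in the cerebellum. The library labelled low 22 stood at 68.9 CPM, and the other low libraries ran from 9.09 to 20.4 CPM. Sham ran from 9.18 to 17.6 CPM (median 11.7). That library is the one with the granule cell mean of 3.91, and without the libraries set apart the difference was -0.00.

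Slc2a1 ran from 84.4 to 127 CPM in sham (median 94.9), and its medians were 111, 95.9 and 87.7 CPM at the rising loadings, with log2 differences of 0.18 ± 0.18, 0.08 ± 0.18 and -0.21 ± 0.18 (SE). Flt1 medians were 80.2 CPM in sham and 75.8, 52.0 and 77.2 CPM at the rising loadings, and those of Abcb1a were 50.6, 42.6, 33.7 and 49.6 CPM. Their log2 differences lay between -0.36 and -0.01 with standard errors of 0.42 to 0.48. Cldn5 medians were 98.3, 92.1, 124 and 91.1 CPM, and its log2 differences of -0.02, 0.12 and 0.14 had a standard error of 0.44. For these 3 genes the spread inside each group was larger than any difference between groups.

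At the high loading the members' median depended on the libraries set apart. It was -0.33 with all libraries (2 of 9 higher), 0.07 without those set apart (6 of 9 higher) and 0.01 in limma-voom with sample weights (5 of 9 higher). Leaving out 1 library at a time gave medians from -0.42 to -0.15, the last without high 43. All 71 ribosomal protein genes tested were higher at the high loading, by a median of 1.79 on the log2 scale. Library means spread more widely there (7.17 to 12.0 log2 CPM) than in sham (7.20 to 9.98). The group median of the ribosomal mean was however lower at the high loading, 7.28 against 7.51 in sham. High 28, 43 and 59 held ribosomal means of 10.95, 11.96 and 10.54 log2 CPM. All 10 fibroblast genes were lower at each loading (medians -1.04, -0.999 and -1.13), and sham 48 had the highest fibroblast mean at 8.40 log2 CPM. Group medians of the fibroblast mean were 4.87 in sham and 4.99, 5.43 and 5.15 at the rising loadings, so they were not lower. The part of either in the members' values was not tested.

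**Figure D3:**
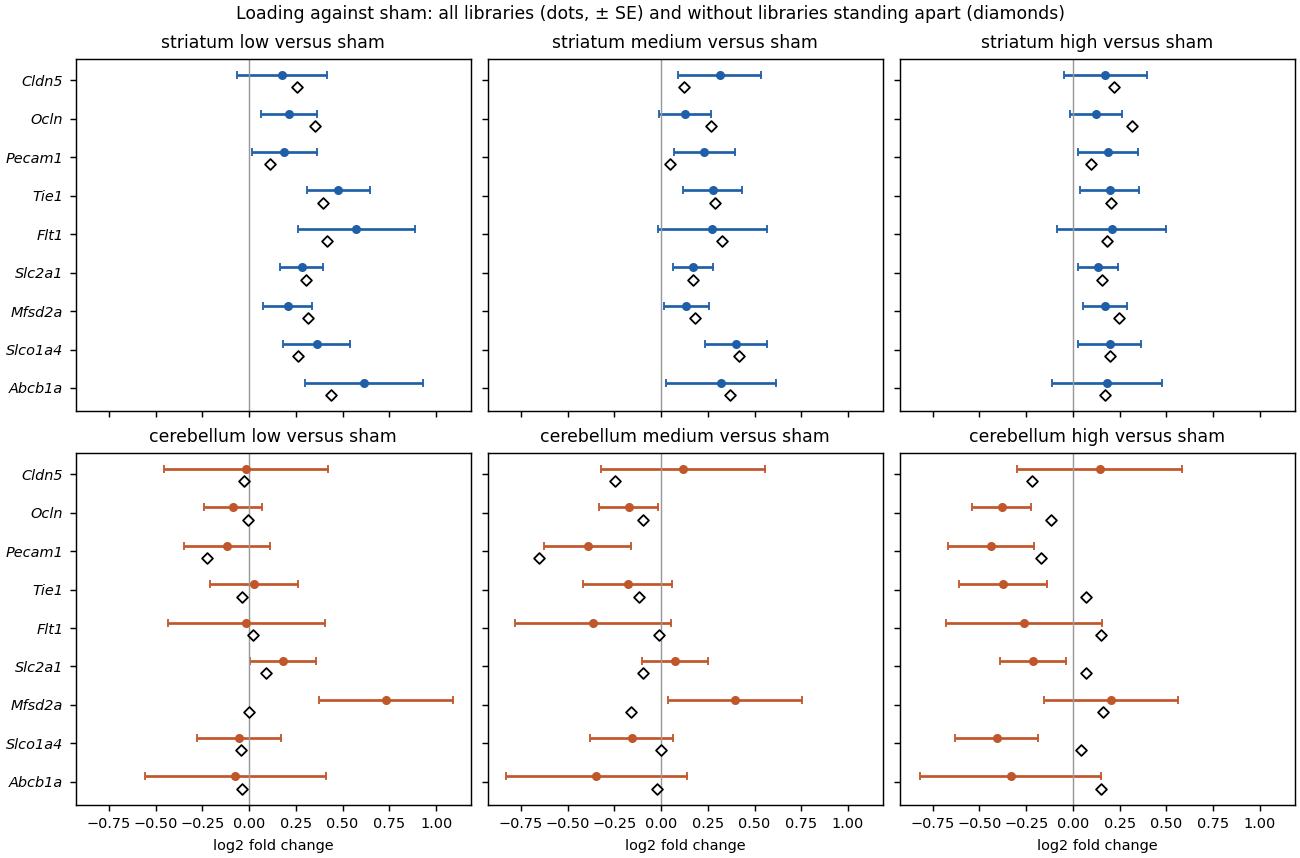
Log2 fold change of each loading against sham (x axis) for the 9 genes in striatum (top) and cerebellum (bottom). Dots with SE bars use all libraries and diamonds leave out those set apart. The striatal dots and diamonds all lie above 0, while in the cerebellum at the high loading 7 of 9 dots lie below 0 and 6 of 9 diamonds above it.

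The cerebellar trend with loading had lower estimates for 8 of the 9 genes, against 54.3% of all genes, and all 9 except Cldn5 were on that side. At an unadjusted p under 0.05 there were 3 members, Ocln, Pecam1 and Slco1a4, where 20.6% of all genes lay under that value and 1.80% of all genes did so in the lower direction. edgeR called 0% of genes, and no member. Without high 58, edgeR called Ocln (adjusted p = 0.0496) among 997 genes, while leaving out high 13, 14, 27 or 44 or sham 48 called 1062, 966, 887, 992 and 1635 genes but no member. DESeq2 called 831 genes for the trend and 43 for any exposure, again with no member. The test of any exposure in edgeR called 0% of genes, with 0 members and 10.3% of all genes at an unadjusted p under 0.05. Without the libraries set apart, and also with limma-voom, 6 of the 9 trend estimates were above 0.

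The difference between regions in the response was tested in one model of both regions. It was not called for any member at any loading by edgeR, DESeq2 or limma-voom, with 0, 0 and 0.00793% of 12616 genes called by edgeR. The striatal response was the higher for 8 of the 9 at each loading (7 at the high loading with RLE factors or DESeq2, where Cldn5 was at -0.0049 and -0.0051), against 50.4, 50.7 and 50.1% of all genes, and the median differences were 0.29, 0.46 and 0.49 on the log2 scale. Members under an unadjusted p of 0.05 numbered 0, 1 and 3, where 2.31, 3.58 and 8.05% of all genes lay under it. The 3 at the high loading were Pecam1 (0.61 ± 0.28 SE), Slco1a4 (0.59 ± 0.28) and Ocln (0.49 ± 0.21), all with an adjusted p of 0.591 in edgeR. Without the libraries set apart the median at the high loading was 0.16.

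In every cerebellar group and in the striatal sham, medium and high groups, some libraries split the 9 genes, with Cldn5 high where Flt1 and Abcb1a were low. The ratio of Cldn5 to Flt1 in CPM, used here to compare libraries and not the levels of the 2 genes, had a striatal median of 1.06 (0.811 to 10.3) and a cerebellar median of 1.21 (0.876 to 23.4). In the cerebellum the 10 libraries set apart held ratios of 4.01 to 23.4 and the other 21 held 0.876 to 2.93, so in this region the 2 sets did not overlap. In the striatum they did, with 0.811 to 10.3 in the 8 libraries set apart and 0.895 to 3.46 in the other 22. That overlap came from sham 17, low 20, high 13 and high 44, set apart by neuron genes alone (ratios 0.811 to 1.14). Sham 49, medium 8 and 41 and high 28, set apart by ribosomal means of 8.76 to 9.48 log2 CPM, held 3.53 to 10.3, above the other 22. All 10 cerebellar libraries set apart had ribosomal means of at least 8.34, more than 1 above their regional median. The libraries set apart were chosen by other genes, of the ribosome and of neurons, and the 10 of the cerebellum came from all 4 exposure groups.

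Single libraries show the size of the split. In cerebellum high 43, Cldn5 stood at 250.3 CPM, Flt1 at 10.7 CPM and Abcb1a at 1.44 CPM (7 reads), with a ribosomal protein mean of 12.0 log2 CPM. In cerebellum sham 48, with a mean of 9.98, Cldn5 stood at 407 CPM, Flt1 at 20.7 CPM and Abcb1a at 15.4 CPM. In striatum high 28, with a mean of 9.48, the 3 genes stood at 282, 27.5 and 19.3 CPM. By contrast cerebellum high 44, with a mean of 7.22, held 81.0, 92.5 and 46.8 CPM. Cerebellar sham libraries spanned ratios of 0.998 to 19.7, and cerebellar high libraries 0.876 to 23.4.

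Across the 21 cerebellar libraries not set apart, Cldn5 went with the ribosomal protein mean when both were taken as deviations from their group means (Pearson's r = 0.92, Spearman's rho = 0.84, permutation p = 1e-05 for both). The same held across the 22 striatal ones (r = 0.92, rho = 0.88, permutation p = 1e-05 for both). That p is the smallest the 100000 permutations can give, and it was 9e-05 after adjustment over 18 relations for both measures. Without the 2 libraries farthest from the median of the ribosomal protein mean, r was 0.74 in the cerebellum and 0.91 in the striatum. Over all libraries, r within each run of 15 animal numbers, which may follow the order of the rat cohorts, lay between 0.86 and 0.97 in the cerebellum and between 0.81 and 0.95 in the striatum.

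Flt1 and Abcb1a went the other way in the cerebellum, with r of -0.76 and -0.73 across the 21 libraries (permutation p = 0.00053 and 0.00089, adjusted p = 0.00301 and 0.00320). Their rho were -0.48 and -0.57 (permutation p = 0.0291 and 0.00838, adjusted p = 0.0523 and 0.0215). Without the 2 farthest libraries r was -0.36 and -0.38, so much of the relation rests on them. In the 22 striatal libraries r was -0.24 for Flt1 and -0.38 for Abcb1a (permutation p = 0.28 and 0.0932) and rho 0.15 and -0.07 (permutation p = 0.496 and 0.754), and r without the 2 farthest was 0.37 and 0.11. The lowest 5 striatal values of both genes sat in sham 48 and 49, medium 8 and 41 and high 28, which had ribosomal protein means of 8.43 to 9.48 log2 CPM. High 59, with a mean of 8.64 in that range, was not among them. The high libraries other than 28 held at least 126 CPM of Flt1 and 65.5 CPM of Abcb1a.

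**Figure D4:**
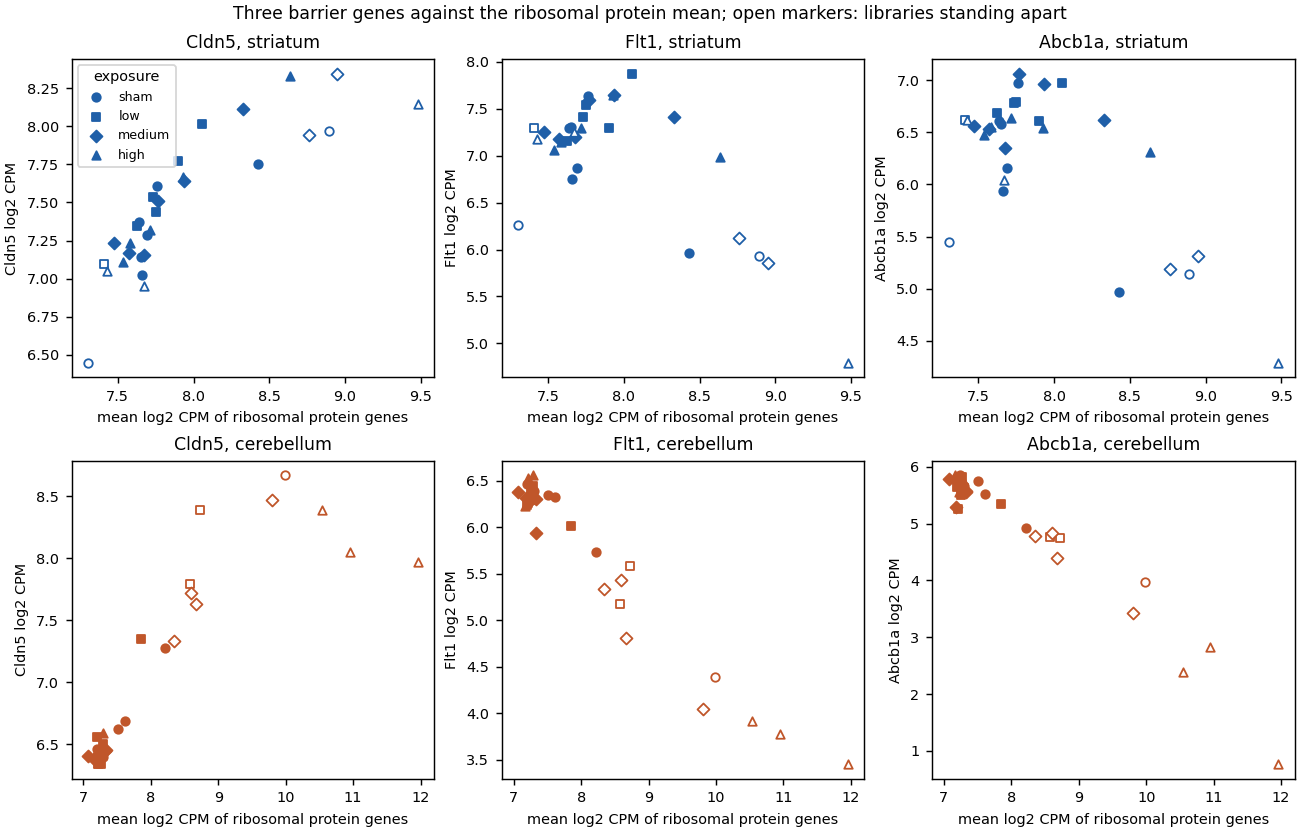
Log2 CPM of Cldn5, Flt1 and Abcb1a (y axes) against the mean log2 CPM of ribosomal protein genes (x axes), with 1 point a library, shaped by exposure and open where the library was set apart. Cldn5 is higher at higher ribosomal means, with the 3 cerebellar high libraries at the far right below sham 48, whereas Flt1 and Abcb1a are lowest at the right of each panel, down to 10.7 and 1.44 CPM in cerebellum high 43.

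The promoters of these 3 genes are shown for reference, taken from RefSeq on GRCr8, which matched 7 of the 9 members. Each runs from 250 bases before to 50 bases after the annotated gene start, 5′ to 3′ on the gene's strand, over chr11:95718549-95718848 (minus strand) for Cldn5, chr12:12333180-12333479 (plus strand) for Flt1 and chr4:26397599-26397898 (minus strand) for Abcb1a. Capitals mark GGGCGG, the GC box, and AGGAAG, a form of the ETS factor core, each on either strand.
Cldn5: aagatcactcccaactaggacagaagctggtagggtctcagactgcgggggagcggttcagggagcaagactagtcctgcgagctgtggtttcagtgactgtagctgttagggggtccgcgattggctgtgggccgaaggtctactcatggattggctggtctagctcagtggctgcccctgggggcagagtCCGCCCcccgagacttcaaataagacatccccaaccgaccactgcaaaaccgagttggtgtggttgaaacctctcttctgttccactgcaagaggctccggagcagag
Flt1: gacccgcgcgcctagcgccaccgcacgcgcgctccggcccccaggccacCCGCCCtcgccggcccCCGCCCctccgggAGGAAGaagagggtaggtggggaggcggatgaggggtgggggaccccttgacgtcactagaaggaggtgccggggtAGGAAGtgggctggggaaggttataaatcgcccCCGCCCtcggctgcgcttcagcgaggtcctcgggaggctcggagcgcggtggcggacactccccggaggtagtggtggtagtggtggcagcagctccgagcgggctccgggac
Abcb1a: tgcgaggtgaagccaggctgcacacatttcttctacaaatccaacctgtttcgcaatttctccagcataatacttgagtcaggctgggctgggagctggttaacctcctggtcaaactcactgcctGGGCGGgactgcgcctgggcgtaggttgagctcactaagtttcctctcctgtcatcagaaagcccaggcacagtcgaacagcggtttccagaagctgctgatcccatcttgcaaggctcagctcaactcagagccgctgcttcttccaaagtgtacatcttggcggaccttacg
The GC box letters occurred once in the Cldn5 and Abcb1a promoters and at 3 positions in that of Flt1, and 33.1% of 33469 rat promoters of this length hold them. The ETS letters occurred at 2 positions in the Flt1 promoter and at none in the other two, against 34.5% of all promoters. TATAAA, on either strand, was found in the Flt1 promoter among the 3, against 14.2% of all. GC content was 57.7% for Cldn5, 72.7% for Flt1 and 53.7% for Abcb1a. A relation of these letters to the split between the 3 genes was not tested.

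Members also varied together in pairs. Among the 22 striatal libraries not set apart, the median r over the 36 pairs of members was 0.59, and 22 pairs had an adjusted permutation p under 0.05 over 72 pairs. Abcb1a and Flt1 went most closely together (r = 0.92, rho = 0.88), followed by Tie1 with Slco1a4 (r = 0.85, rho = 0.88). Cldn5 went with Ocln (r = 0.81, rho = 0.81) and Slc2a1 (r = 0.80, rho = 0.88), but not with Flt1 (r = 0.07, rho = 0.34). The adjusted permutation p of the first 4 pairs was 0.00018 each for r and 0.00021 each for rho, and that of the last pair was 0.81 for r and 0.222 for rho.

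Among the 21 cerebellar libraries the median r was 0.14, and 5 of 36 pairs had an adjusted permutation p under 0.05. They were Slc2a1 with Cldn5 (r = 0.59), Abcb1a with Flt1 (0.55), Ocln with Abcb1a (0.54), and Cldn5 with Abcb1a (-0.58) and with Flt1 (-0.68). Without the 2 libraries farthest from the median of the first-named gene, these were 0.20, 0.17, 0.51, -0.09 and -0.20. That of Ocln with Abcb1a stayed of similar size. Its omitted libraries were set by Ocln and those of the other pairs by other genes, so the omissions are not alike. By rho, 1 of the 5 pairs had an adjusted permutation p under 0.05, Ocln with Abcb1a (0.66, adjusted p = 0.00600). Whether the pattern of pairs differs between the regions was not tested.

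**Figure D5:**
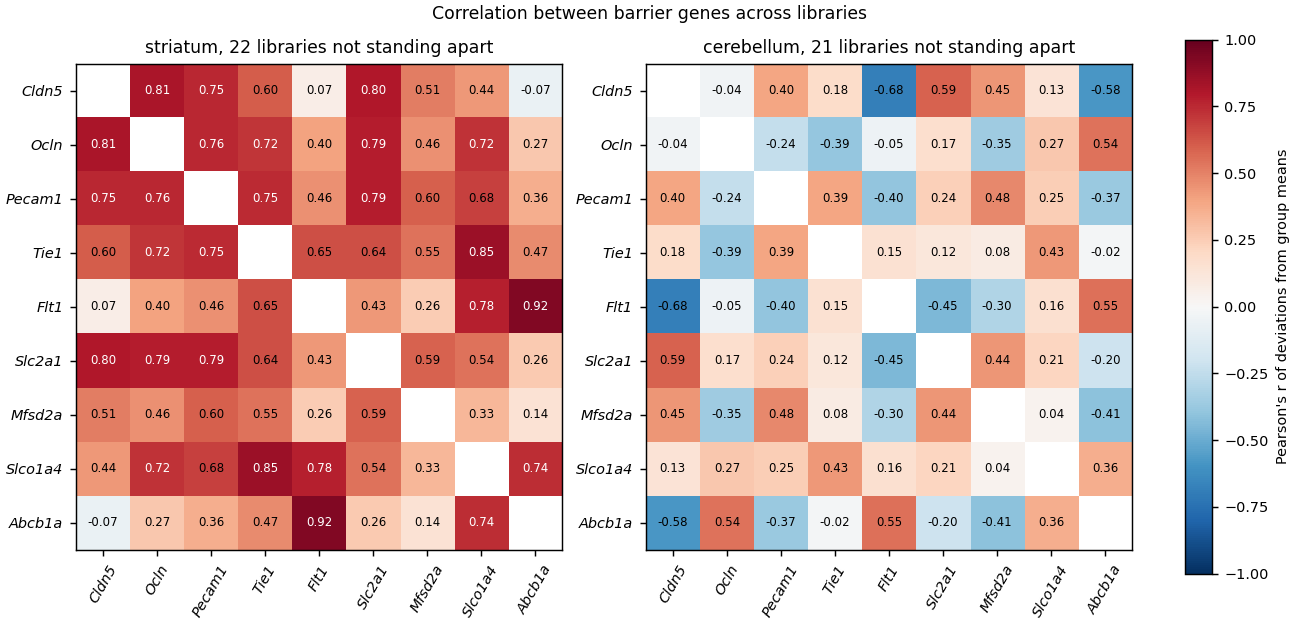
Pearson's r between each pair of the 9 genes, of log2 CPM as deviations from exposure group means, in the 22 striatal (left) and 21 cerebellar (right) libraries not set apart. Striatal cells are mostly positive, with a median of 0.59, and Cldn5 against Flt1 is -0.68 in the cerebellum.

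Striatal members also went with genes of cells that border the vessel. Across the 22 libraries, Tie1 had r = 0.87 with the mean of 14 mural cell genes (permutation p = 1e-05, adjusted p = 6e-05; rho = 0.84, permutation p = 3e-05), and the other members had r of 0.49 (Mfsd2a) to 0.83 (Pecam1), with an adjusted permutation p under 0.05 for 9 of 9. With the mean of 12 microglial genes, r ran from 0.36 (Abcb1a) to 0.81 (Pecam1), under that value for 6 of 9. With 11 endfoot genes it ran from 0.26 (Mfsd2a) to 0.76 (Slc2a1), under that value for 8 of 9. Only members were related to these means, so the share of all genes under that value is not known. The counts describe the members and do not set them against other genes. In the 21 cerebellar libraries, r with the mural mean was 0.76 for Tie1 and 0.64 for Slco1a4 (adjusted permutation p = 0.000300 and 0.00313), and between 0.04 and 0.41 for the other 7.

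The genes most like the members were ranked by r with the mean of the 9 after each was standardized. In the 30 striatal libraries these were Csf1r (0.89), the receptor that sustains microglia, Slco2b1 (0.88), a transporter, Adgrl4 (0.88), an endothelial adhesion receptor, Mpeg1 (0.86) of macrophages and Prom1 (0.86). In the 22 libraries not set apart they held 0.85 to 0.88. In the 31 cerebellar libraries they were Gja1 (0.92), which encodes connexin 43 of astrocytes, Msn (0.91), Rab5b (0.91), Mpeg1 (0.90) and F2r (0.90), and these values were 0.16 to 0.59 in the 21 not set apart. The ranking chose them, so these values are descriptions.

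Genes of other barrier lists were called in both directions between the sham regions in the same fit, where 20.9% of all genes were called higher in striatum and 22.1% lower. Against those shares, the counts of single lists describe their genes and are no result about the barrier. Of 14 Wnt pathway genes, 7 were called higher in striatum and 0 lower, among them Wnt7a (2.16 ± 0.32 SE) and Wnt7b (1.60 ± 0.27), the ligands that instruct brain endothelium. Of 11 junction genes 4 were higher and 2 lower, with Jam3 at 1.99 ± 0.26 and Marveld2, which encodes tricellulin, at -1.56 ± 0.40. Of 15 VEGF and angiopoietin genes 4 were higher and 1 lower, and the lower one was Angpt1 (-2.25 ± 0.41), the ligand of Tek. Of 16 further transporters and receptors 6 were higher and 3 lower, with Slco2b1 at 1.33 ± 0.18 and Spns2 at -0.76 ± 0.11. Plvap, the diaphragm protein of fenestrated and leaky vessels, was lower in striatum (-3.47 ± 0.65, adjusted p = 1.54e-05 by edgeR), beside 9 of 10 fibroblast genes called lower. It is 1 of 10 listed genes of permeable or activated vessels and does not stand for that list. The list's mean log2 CPM in sham had a median of 3.94 in striatum and 3.60 in cerebellum. Those means were normalized within each region and need not cover the same genes.

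Reads of close relatives could bear on 2 members. Abcb1b, the second P-glycoprotein gene, had a median of 4.61 CPM in the striatum and 1.30 CPM in the cerebellum, and Abcb4 had 21.7 and 3.61 CPM. Slco1a5 had a median of 0.13 CPM in the striatum, with 1 library at 53.8 CPM. How reads with several positions were counted is not given in the sources used here, so Abcb1a and Slco1a4 are uncertain to that extent.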

How the data were processed

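The deposited values are whole-number read counts per gene, in 1 table per brain region with NCBI Gene IDs as rows. Per the submitters' processing notes the authors used FastQC, HISAT2 and rn6, while no counting tool, strand setting, annotation or rule for reads with several positions is given in the sources at hand. According to the labels' protocols, mRNA came from poly(A) capture or rRNA depletion, with no statement per library, and rats from 4 cohorts, with no cohort per rat.

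From these counts, edgeR 4.0.16 in R 4.3.3 gave TMM factors, filterByExpr filtering (12267, 11946 and 12616 genes tested in striatum, cerebellum and both) and robust quasi-likelihood tests with 4 exposure groups, tested on simulated data first. Two-sided p-values were adjusted by Benjamini-Hochberg over all genes tested, at 0.05. Log2 CPM used a prior count of 2. The trend is the change over 10 percentage points of loading. Correlations used deviations from exposure group means and 100000 permutations, two-sided.

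The 9 members, the gene lists and the tests were chosen with earlier results of these data known. All members were named, with list genes taken from those of smallest p in their list, and the 5 genes most like the members' mean. Alternatives were RLE factors, DESeq2 1.42.0, limma-voom (limma 3.58.1) with quality weights, no filter, a mean CPM of 1, omission of the libraries set apart, of animal 17 or of each library, covariates, a block of 15 animal numbers, only the groups compared, and, between regions, the animal as block. Equal numbers in the sample titles of the 2 regions were taken to mark the same animal. Over 29 such numbers the deviations from group means had a median r of 0.39 (-0.28 to 0.85) across genes, against 0.09 for unequal numbers. For 6 of the 29, the striatal library matched the cerebellar library of its own number best.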

Additional observations from a re-analysis of the deposited data

Results flagged for a closer look

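In 8 of 72 sets of member, region and exposure group, 1 library lay far from the rest of its group by Dixon's criterion, which chance meets in about 1 of 20 sets. All 8 were libraries set apart by their ribosomal protein or neuron genes, and 4 of the 8 came from striatum high 28. That library held the lowest value of its group for Flt1 (27.5 CPM, the others from 126 CPM upwards), Abcb1a (19.3 CPM, the others 65.5 to 99.2 CPM), Slco1a4 (55.4 CPM, the others 90.5 to 124 CPM) and Ocln (14.8 CPM, the others from 22.9 CPM upwards). In cerebellum sham 48, Cldn5 was the highest of its group at 407 CPM, where the others ran from 82.7 to 155 CPM. In the same library Flt1 was the lowest of its group at 20.7 CPM, where the others ran from 52.9 to 87.8 CPM. Mfsd2a stood at 68.9 CPM in the library labelled cerebellum low 22, against 9.09 to 20.4 CPM in the others of its group. Tie1 stood at 38.0 CPM in cerebellum medium 40, whereas the rest of that group ran from 20.1 to 26.5 CPM.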

How the results depend on the processing

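In the comparisons of each striatal loading with sham, all 414 member estimates with 1 library left out and 269 of 270 under the other alternatives kept their direction and their side of the threshold, though not their size in each case. The exception was Pecam1 at the high loading, at -0.022 with limma-voom. The striatal trend, which these numbers leave out, did turn: 7 of 9 members were above 0 with all libraries, 4 with limma-voom, 5 without sham 17 or high 59 and 9 without the libraries set apart. Over both regions and their differences, trends left out, 782 estimates under those other alternatives did so, 35 turned direction, 11 passed the threshold and 1 no longer did. With 1 library left out 1721 of 1773 did so. In sham, limma-voom called 8 members higher in striatum and omission of the libraries set apart also gave 8, against 4. Over all genes, these fits called 4311 and 4033 genes higher, against 2641, so more genes were called throughout. Leaving out 1 library gave 3 to 5 members, and for the cerebellar trend 0 to 1. With the animal as the replicate block 4 members were called, with Flt1 gained at 0.84 (adjusted p = 0.0352 by edgeR) and Slco1a4 lost at 0.44 (adjusted p = 0.0858), and the block changed no other call.

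Directions turned in the cerebellum as follows, on the log2 scale. Without the libraries set apart, Tie1 was at -0.037, Mfsd2a at -0.0026 and Flt1 at 0.023 at the low loading. At the medium loading Slc2a1 was at -0.10, Slco1a4 at 2.7e-05, Mfsd2a at -0.16 and Cldn5 at -0.25. At the high loading Tie1 was at 0.067, Slc2a1 at 0.071, Slco1a4 at 0.045, Cldn5 at -0.22, Abcb1a at 0.15 and Flt1 at 0.15. With limma-voom, Tie1 was at -0.050 (low), Slc2a1 at -0.0047 and Cldn5 at -0.0073 (medium), and Tie1 at 0.043, Slc2a1 at 0.10, Cldn5 at -0.046, Abcb1a at 0.013 and Flt1 at 0.042 (high). With ribosomal and neuron means as covariates, Tie1 was at -0.21 and Cldn5 at 0.014 (low) and Cldn5 at -0.31 (high), and without animal 17 Flt1 was at 0.025 (low). For the difference between regions, Mfsd2a was at 0.12, 0.11 (limma-voom, low and medium), 0.32, 0.35 and 0.11 (without the libraries set apart, low, medium and high). At the high loading Slc2a1 was at -0.023 (limma-voom) and Cldn5 at -0.0049 (RLE), -0.0051 (DESeq2) and -0.0028 (without animal 17).

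With 1 library left out, cerebellar estimates at the low loading ran from -0.074 to 0.076 for Tie1, -0.12 to 0.012 for Slco1a4, -0.32 to 0.48 for Cldn5, -0.23 to 0.0042 for Abcb1a and -0.18 to 0.081 for Flt1. At the medium loading Slc2a1 ran from -0.0075 to 0.14 and Cldn5 from -0.16 to 0.63, and at the high loading Cldn5 ran from -0.13 to 0.63. For the difference between regions, Mfsd2a ran from -0.65 to 0.053 (low), -0.36 to 0.0037 (medium) and -0.16 to 0.076 (high), and Cldn5 from -0.35 to 0.49, -0.34 to 0.49 and -0.53 to 0.26. The cause of these turns was not tested. Counts limit few values, since the lowest of any member was 7 reads (Abcb1a in cerebellum high 43).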
